A study of Homo sapiens and Mus musculus with 61 samples.

Results

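HBG1 and HBG2 are the paired fetal gamma-globin genes. They lie side by side on the minus strand of chromosome 11, within the beta-globin cluster, between the embryonic gene HBE1 and the adult genes HBD and HBB. Each encodes a gamma chain, which joins with alpha-globin chains to make fetal haemoglobin, and the genes are near copies of each other that arose by duplication. A group of DNase hypersensitive sites upstream of HBE1, the locus control region, drives the genes of the cluster in erythroid cells. K562, the line used here, is a human leukaemia line with erythroid features that is known for expressing gamma-globin and little or no adult beta-globin.

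Capture of chromatin by a biotinylated inactive Cas9 (dCas9) followed by sequencing was carried out in K562 cells that also carried either a guide RNA to a site of the cluster or the non-targeting guide sgGal4, with streptavidin beads, per the labels. dCas9 binds where the guide matches the DNA and does not cut it. The gamma-globin promoters were the target of 2 guides, sgHBG with 4 libraries and sgHBG-sg2 with 2. The comparison group in every table was the same 4 sgGal4 libraries, and 15 further tables held 14 guides and 1 pool of guides aimed elsewhere in the cluster. In all, 42 guide libraries and 4 sgGal4 libraries were used, and 15 of the 61 samples were not analysed here. The labels do not say whether replicates came from separate cultures, so the p-values measure the spread between these libraries, which may be technical.

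The members were the 300-base regions on chromosome 11 with a centre between positions 5262000 and 5280000 of hg19, a stretch that holds HBG1, HBG2 and the DNA between them. Of 143198 rows in the 17 tables together, 21 met this rule, at 6 of 91133 distinct positions. A region near the start of HBG1 and another near the start of HBG2 were listed in the tables of sgHBG and sgHBG-sg2, and in no other of the 17 tables. Another region, in the DNA between the genes, was listed in all 17 tables. A table lists only the regions its authors kept for it, so an unlisted promoter has no value and was not analysed here.

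The regions listed for the 2 guides cover different parts of each promoter. For sgHBG, the HBG1 region (5271083 to 5271382) ran from 295 bases before the transcription start to 4 bases after it. The HBG2 region of sgHBG (5276001 to 5276300) ran from 289 bases before the start to 10 after it. For sgHBG-sg2, the HBG1 region (5270888 to 5271187) ran from 100 bases before the start to 199 after it, and so took in the 5′ UTR, the whole of exon 1 and the first part of intron 1. The HBG2 region of sgHBG-sg2 (5275818 to 5276117) ran from 106 bases before the start to 193 after it and covered the same features. The starts are those of the GENCODE annotation on GRCh37, at 5271087 for HBG1 and 5276011 for HBG2.

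In GRCh37 the parts of the 2 genes covered by sgHBG-sg2 were the same letter for letter. Over the 306 bases that its 2 regions span between them, from 106 bases before the start to 199 after it, HBG1 and HBG2 had 306 identical bases and 0 mismatches. Over the 300 bases before the start, which hold most of the sgHBG regions, there were 295 identical bases, 1 mismatch and 8 gap positions in an alignment of 304, and the longest shared run was 222 bases. Further upstream, from 1001 to 2000 bases before the start, identity was 59.8%, with a longest shared run of 23 bases.

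Only reads that aligned to a single place in the genome were kept, per the labels' protocols, so stretches that occur only once were counted in each region. Within the sgHBG-sg2 regions of HBG1 and of HBG2, 0 of 251 stretches of 50 bases occurred only once on chromosome 11, counting both strands. The count was also 0 for stretches of 36 bases and of 75 bases, and 0 stretches of any of these lengths that occurred once so much as touched the region. The nearest 50-base stretch found once began 73 bases upstream of the HBG1 region and 67 bases upstream of the HBG2 region, and on the downstream side the gap was 152 and 158 bases. In the sgHBG regions, 73 of 251 stretches of 50 bases in HBG1 (29.1%) and 67 of 251 in HBG2 (26.7%) occurred once, near the upstream end as the profile by distance from the start shows. The sources used here give neither the read length nor the way reads were assigned to a region. How reads kept as unique came to be counted in the sgHBG-sg2 regions was not tested.

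**Figure D1:**
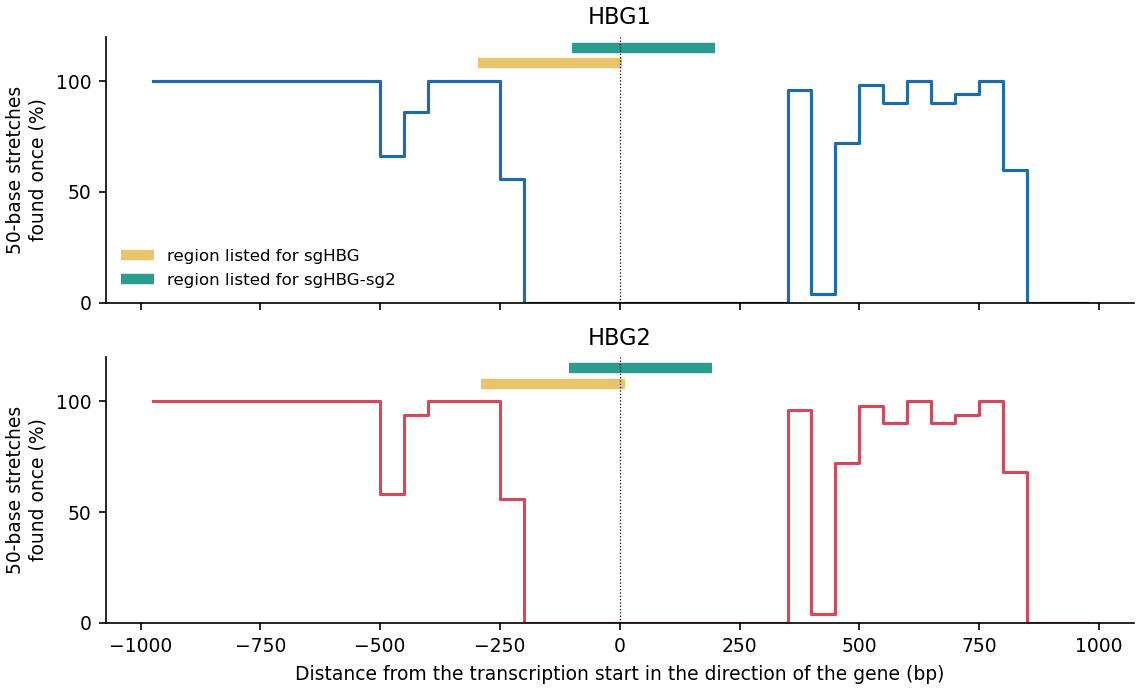
Share of 50-base stretches that occur once on chromosome 11 of GRCh37 (y axis, percent, in steps of 50 start positions) against distance from the transcription start in the direction of the gene (x axis, bp), for HBG1 above and HBG2 below. Bars mark the regions listed for sgHBG and sgHBG-sg2: the sgHBG-sg2 regions lie wholly where the share is 0, and the sgHBG regions reach into the unique stretch upstream.

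The same likeness held for possible guide sites, that is, 20 bases followed by NGG, the short sequence that the commonly used Cas9 needs beside its target. The HBG1 region of sgHBG held 45 such sites and the HBG2 region 46, of which 39 were in both. For sgHBG-sg2 the counts were 51 and 50, with 50 in both. Every shared site, 39 of 39 and 50 of 50, had 2 copies beside NGG on chromosome 11. The sites that the guides themselves use were not analysed here.

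Short motifs known from globin promoters were counted by letters, on both strands. CCAAT matched 2 times in the HBG1 region and 3 times in the HBG2 region of sgHBG, and 1 time in each region of sgHBG-sg2, and 34.6% of 34796 RefSeq promoter stretches of 300 bases (GRCh38.p14) hold it. CACCC, a motif bound by KLF factors, matched 2 times in each sgHBG region and 1 time in each sgHBG-sg2 region, against 59.8% of promoters with a match. GATA, the core of the site bound by GATA1, matched 4 times in each sgHBG region and 3 times in each sgHBG-sg2 region, against 49.8% of promoters. TATA matched 1 time in each sgHBG region and 0 times in the sgHBG-sg2 regions, against 29.2% of promoters, and TGACC matched 2 times and 3 times, against 37.3%. Of the 11 and 12 matches in the sgHBG regions of HBG1 and HBG2, 4 in each shared a base with a match of another motif, as did 2 of 8 in each sgHBG-sg2 region.

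The region between the genes, at chr11:5273371-5273670 in 16 tables and 19 bases away in the table of sgHS5, is the only member listed for every guide, which is why its sequence is shown. It is intergenic, from 2284 to 2583 bases upstream of the start of HBG1. On the plus strand of GRCh37 it reads as follows, 5′ to 3′, with capitals where CCAAT or its reverse complement occurs.
intergenic region: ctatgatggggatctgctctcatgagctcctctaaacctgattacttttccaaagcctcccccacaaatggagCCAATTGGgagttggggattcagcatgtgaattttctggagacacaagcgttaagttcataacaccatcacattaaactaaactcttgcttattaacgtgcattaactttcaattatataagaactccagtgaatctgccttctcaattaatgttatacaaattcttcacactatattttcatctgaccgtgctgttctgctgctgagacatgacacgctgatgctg
The capitals are a single stretch that reads as CCAAT on each strand, and account for both of the 2 CCAAT matches in this region. CACCC and GATA matched 0 times there, TATA 4 times and TGACC 1 time. Its GC content was 40.3%, against 47.7% and 48% in the sgHBG regions of HBG1 and HBG2 and 53.7% and 53.3% in those of sgHBG-sg2. All 251 of its 50-base stretches occurred once on chromosome 11.

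Reads at both promoters came almost wholly from the guide libraries in the table of sgHBG. At HBG1 the 4 sgHBG libraries held 4293, 275, 1432 and 2632 reads, in order of replicate, and the 4 sgGal4 libraries held 0 each. At HBG2 they held 4824, 245, 1662 and 2958 reads, against 4, 4, 0 and 0 in sgGal4. Every sgHBG library was above every sgGal4 library at both genes, but the share of all listed regions so separated was not counted. Of the sgHBG libraries, replicate 2, the shallowest with 17857 reads over all listed regions, was the lowest. The others had 58827 to 106873 reads, and sgGal4 had from 8902 to 93779.

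On the scale of the authors' deposited log2 levels, which they normalised within each table, HBG1 stood at 10.72 (SD 1.16, n = 4) with sgHBG and at 0.53 (SD 2.09, n = 4) with sgGal4. The difference of 10.20 (SE 0.90) passed limma's test with an adjusted p of 0.000177 (Benjamini-Hochberg over 6808 regions). HBG2 stood at 10.83 (SD 1.31) with sgHBG and 1.87 (SD 0.63) with sgGal4, a difference of 8.96 (SE 0.63, limma adjusted p 2.21e-05). Ordered by difference, HBG1 ranked 1 and HBG2 ranked 2 in the table. Both promoters were called higher, where 336 of the 6808 regions, 4.94%, were called higher in the same test. The promoters were listed only in the tables of the guides aimed at them, and a region with 0 sgGal4 reads, as at HBG1, can be listed only through its guide libraries and can then differ only upwards. The calls are therefore a description of the listed regions, and the test adds no independent support for their direction. The intergenic region, by contrast, was not called (difference −0.82, SE 0.49, limma adjusted p 0.244).

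The log2 difference was larger at HBG1 than at HBG2, although sgHBG reads were not: the 8 sgGal4 reads at the pair were all at HBG2. The size of the difference at HBG1 depends on the value the deposited scale gives to 0 reads, which ranged from −1.72 to 2.31 over the 4 sgGal4 libraries. Expressed in reads, HBG1 took 3.44% of all reads in the listed regions over the 4 sgHBG libraries. With 0 sgGal4 reads of 164065, a floor of 3 reads was set for the whole group. Against this floor the share at HBG1 was 1884-fold higher. That figure rests on the chosen floor and is not a limit of a 95% interval. HBG2 took 3.87% of the sgHBG reads against 8 sgGal4 reads, 793-fold higher with an exact 95% interval of 402 to 1837. Such intervals cover counting error only, and the share at HBG1 ranged from 1.54% to 6.40% between the sgHBG libraries. In the authors' deposited table the log2 ratio of sgHBG to sgGal4 was 9.62 at HBG1 and 9.25 at HBG2, and both carried an on-target tag.

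With sgHBG-sg2, HBG1 held 2743 and 1601 reads and HBG2 held 2728 and 1652, in libraries of 52292 and 45328 reads, and all 4 sgGal4 libraries held 0 at both genes. The groups did not overlap at either gene, but the share of all listed regions without overlap was not counted, so this only describes the reads. The mean log2 level at HBG1 was 11.36 (SD 0.09, n = 2) against 1.14 (SD 1.59, n = 4), a difference of 10.22 (SE 0.86, limma adjusted p 0.000542 over 6591 regions). At HBG2 the difference was 10.24 (SE 0.86, limma adjusted p 0.000542), and the genes ranked 2 and 1 in the table. Both were called higher, against 61 of 6591 regions, 0.926%, in the same test, but with 0 sgGal4 reads at either gene these regions too could be listed only through the guide libraries, so the calls restate that.

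In reads, with the same floor of 3 set for sgGal4, the second guide's promoters were 2303-fold higher at HBG1 and 2323-fold higher at HBG2. HBG1 took 4.45% and HBG2 4.49% of the reads of the 2 libraries in listed regions, and sgGal4 had 0 reads of 155292. In the authors' deposited table the log2 ratios were 9.65 and 9.67. The intergenic region held 6 and 3 reads with sgHBG-sg2, against 7, 14, 0 and 2 with sgGal4, and was not called (difference −0.69, SE 0.55, limma adjusted p 0.380).

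**Figure D2:**
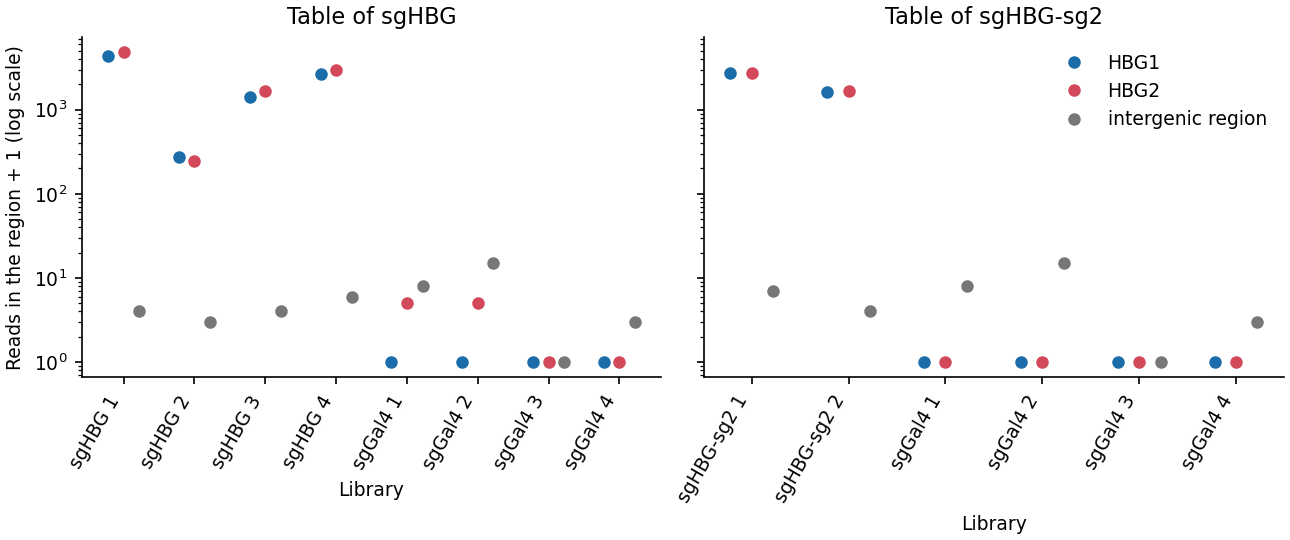
Reads in the HBG1, HBG2 and intergenic regions (y axis, reads + 1 on a log scale) in each library (x axis) of the sgHBG table on the left and the sgHBG-sg2 table on the right, 1 point a library. The HBG1 and HBG2 points of the 6 guide libraries lie between 245 and 4824 reads, and those of sgGal4 lie at 0 except for 4 reads at HBG2 in replicates 1 and 2.

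HBG1 and HBG2 were the 2 regions with most reads in each of the 6 gamma-globin guide libraries, HBG2 ahead in sgHBG replicates 1, 3 and 4 and sgHBG-sg2 replicate 2, and HBG1 ahead in the other two. How far they stood above the rest differed between the guides. With sgHBG the lower of the pair held 4.40, 1.49, 3.53 and 3.09 times the reads of the highest other region, in order of replicate. With sgHBG-sg2 it held 27.6 and 16.7 times as many, where the highest other regions had 99 and 96 reads. The tables list different regions, so this contrast was not tested.

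**Figure D3:**
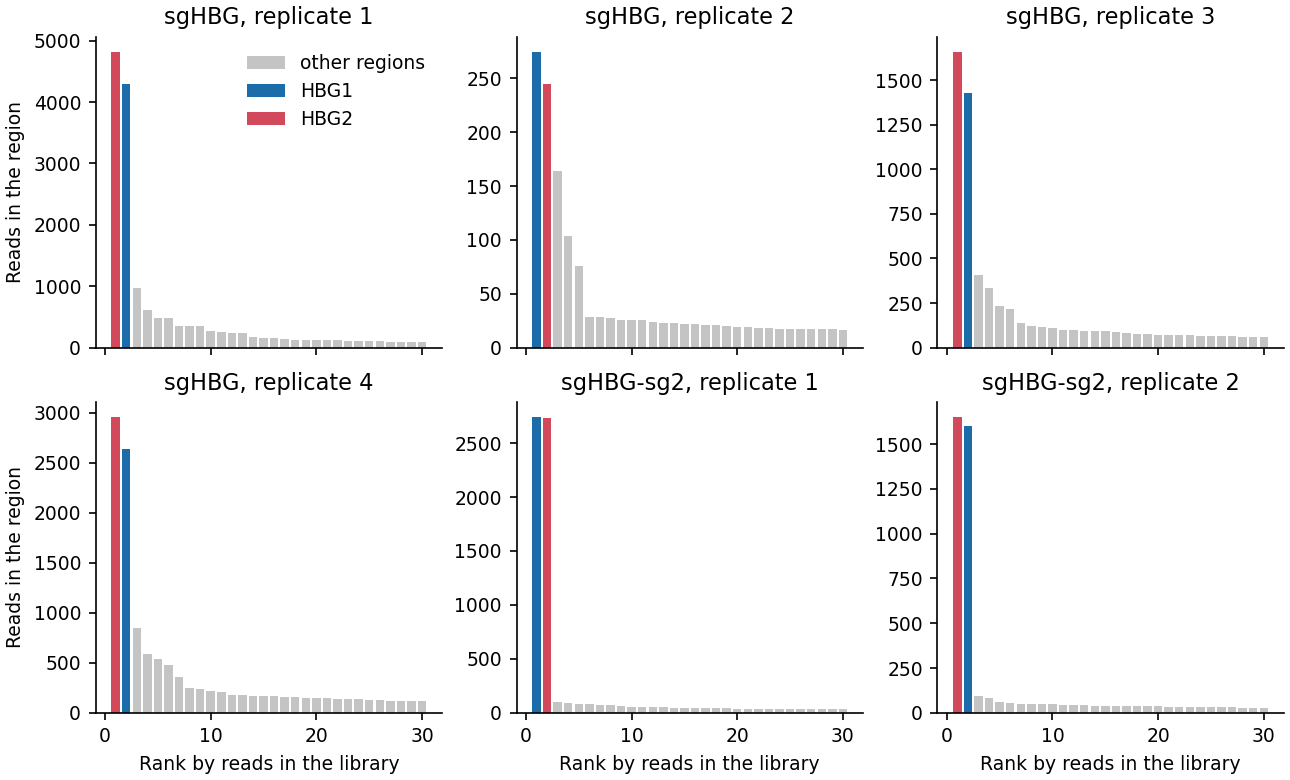
Reads (y axis, linear, a scale of its own in each panel) in the 30 regions with most reads in each gamma-globin guide library, by rank (x axis), HBG1 in blue, HBG2 in red and all other regions in grey. HBG1 and HBG2 hold ranks 1 and 2 in each panel, and the grey bars next to them are taller with sgHBG than with sgHBG-sg2.

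As counted in the tables, reads were divided almost evenly between the genes. The regions of sgHBG-sg2 hold 0 unique stretches of 36, 50 or 75 bases, so reads of these lengths that lie within them cannot be given to either gene by sequence. In the sgHBG regions only 29.1% (HBG1) and 26.7% (HBG2) of 50-base stretches occur once, so the limit holds for most of these regions too. The split with either guide, the mean over the 6 libraries and the comparison of the guides therefore describe the tables and not the genes. With sgHBG, HBG1 had 47.1% of the reads of the pair in replicate 1 (exact 95% interval 46.1 to 48.1%), 52.9% in replicate 2 (48.5 to 57.2%), 46.3% in replicate 3 (44.5 to 48.1%) and 47.1% in replicate 4 (45.8 to 48.4%). With sgHBG-sg2 it had 50.1% (48.8 to 51.5%) and 49.2% (47.5 to 50.9%). The intervals of sgHBG replicates 1, 3 and 4 lay below an even split, and those of the other 3 libraries included it.

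Over the 6 libraries the mean log2 ratio of HBG1 to HBG2 reads was −0.07 (SD 0.14, n = 6), which did not pass a 2-sided exact permutation test by sign flips (p = 0.25). For sgHBG alone it was −0.10 (SD 0.18, n = 4, exact permutation p = 0.25), in a design whose smallest possible p is 0.125. The difference between the guides in this ratio, sgHBG minus sgHBG-sg2, was −0.08 (2-sided exact permutation test, p = 0.6), and 4 against 2 libraries cannot give a p below 0.0667. The only sgHBG library with more reads at HBG1 than at HBG2 was replicate 2, the shallowest. Without it the ratio was −0.12 over 5 libraries (exact permutation p = 0.125) and −0.18 for sgHBG (exact permutation p = 0.25). The difference between the guides was then −0.17 (exact permutation p = 0.1). The p-values for sgHBG alone and for this difference are the smallest that so few libraries can give, so these tests cannot decide.

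**Figure D4:**
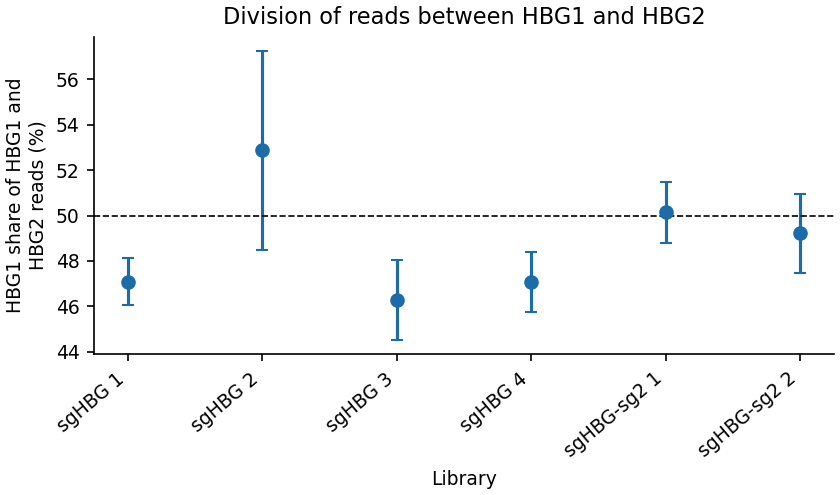
HBG1 share of the reads at HBG1 and HBG2 together (y axis, percent) in each of the 6 gamma-globin guide libraries (x axis), with exact 95% binomial intervals. The dashed line marks an even split: sgHBG replicates 1, 3 and 4 lie below it and sgHBG replicate 2 has the widest interval, from 48.5 to 57.2%.

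To compare the guides on a common base, reads at the pair were set against reads in the 2911 regions listed at the same position in both tables, with the promoters themselves added. The share at HBG1 and HBG2 was 45.2, 11.4, 22.2 and 22.3% in the sgHBG libraries, in order of replicate, with a mean of 25.3% (SD 14.2, n = 4). It was 35.0 and 31.0% with sgHBG-sg2, with a mean of 33.0% (SD 2.86, n = 2). The sgHBG libraries lay on both sides of the sgHBG-sg2 pair. The difference of −7.70 percentage points had p = 0.6 in a 2-sided exact permutation test, which cannot go below 0.0667 with these numbers. This difference ranged from −14.3 to −3.08 when a library was left out, the ends being without sgHBG replicate 1 and without sgHBG replicate 2. The shares depend on the base. Over all listed regions of each table the mean share was 6.75% for sgHBG and 8.82% for sgHBG-sg2. On that base the difference was −2.07 percentage points (2-sided exact permutation test, p = 0.6).

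Few regions of the rest of the beta-globin cluster were listed in the gamma-globin guide tables. Of a list made up of HBB, HBD, HBBP1, HBE1, the hypersensitive sites HS1 to HS5 and 3'HS1, taken as all other regions within 45 kb of the gamma-globin interval, there was 1 region in the sgHBG table and none, 0, for sgHBG-sg2. The listed region lay at HS5 (5312517 to 5312816), the outermost site of the locus control region. It held 9, 5, 15 and 15 reads with sgHBG and 6, 11, 2 and 2 with sgGal4, groups that overlapped. The difference of 0.46 (SE 0.48) was not called by limma, with an adjusted p of 0.504, and with reads and a pseudocount of 5 its sign turned (−0.38). So 0 of 1 listed regions of the cluster outside the interval was called by limma, and 0 had an unadjusted p under 0.05.

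By the root mean square difference of log2 levels over the 8 libraries, the region most like the mean of HBG1 and HBG2 in the sgHBG table lay on chromosome 1 (25546650 to 25546949), 12177 bases from SYF2, whose product is a splicing factor. That difference was 1.54. It held 975, 76, 406 and 851 reads with sgHBG and 0 with each sgGal4 library, which was 21.4, 29.2, 26.2 and 30.4% of the mean of HBG1 and HBG2 in the same library. Next were a region in an intron of RRAGD, which encodes a GTPase of the Rag family, on chromosome 6 (90094921 to 90095220; difference 2.02) and an intergenic region on chromosome 9 (97851917 to 97852216; 2.76). Both stayed below 22% of the promoters' mean in every sgHBG library, from 10% to 21.8% for the first and 4.23% to 8.98% for the second. In the sgHBG-sg2 table the 3 nearest regions, 2 on chromosome 9 and 1 in an intron of NOTCH2 on chromosome 1, were far less alike, with differences of 3.70 to 3.80 over 6 libraries. Their highest share of the promoters' mean was 3.01%.

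The intergenic region held few reads. Over the 42 guide libraries it held a median of 3 reads and at most 21, and 11 libraries had 0. In sgGal4 the reads were 7, 14, 0 and 2. Per 100000 reads in the 1661 regions listed at the same position in all 17 tables, the median was 89.0 over the guide libraries, with a range from 0 to 339.7, and the sgGal4 libraries ranged from 0 to 82.5. This base is not alike in the groups. In the sgHBG table the common regions held 14516 of 52179 listed reads in sgGal4 replicate 1 and 4068 of 67063 in sgHBG replicate 1. By reads it ranked 120 of 16890 regions in replicate 4 of the pool sgHS1-5, with 5 reads, and 198 of 5217 in sgHS2 replicate 4, with 12. These ranks were not typical: in the other libraries it ranked from 8919 to 14997 for the pool and from 1659 to 4767 for sgHS2.

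Guides aimed at the adult end of the cluster gave the following reads there. The single sgHBB library had 1 read, and the sgHBB-sg2 libraries had 7 and 0. The guide sgHBD-1kb had 2 and 3 reads, and sg3'HS1, aimed at the hypersensitive site beyond HBB, had 0 and 0. None of these read counts exceeded 14, the highest in sgGal4. Per 100000 reads in the common regions, sgHBB-sg2 replicate 1 (153.3) and sgHBD-1kb replicates 1 and 2 (108.3 and 192.6) lay above the highest sgGal4 library. As a share of all listed reads they lay below it. The share was 0.0146% for sgHBB-sg2 replicate 1, against 0.0265% in sgGal4 replicate 4. For sgHBD-1kb it was 0.0021% and 0.0043%, against 0.0171% in sgGal4 replicate 4, so the direction depends on the base.

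Guides to the locus control region gave similar small numbers. For HS1, sgHS1 had 4 and 3 reads and sgHS1-sg2 had 4 and 0. For HS2, the classical enhancer of the cluster, sgHS2 had 0, 0, 2, 12 and 4 reads and sgHS2-sg2 had 1. For HS3, sgHS3 had 4, 0 and 0 and sgHS3-sg2 had 1. None of these libraries exceeded 12 reads. For HS4, sgHS4 had 0 and 3 reads and sgHS4-sg2 had 8 and 1. For HS5, which binds CTCF, sgHS5 had 4, 21 and 16 reads, in libraries of 158766, 432553 and 245557 reads, and sgHS5-sg2 had 10 and 5. The pool sgHS1-5 ranged from 0 to 17 reads over 6 libraries, with a median of 6. The highest counts, 21, 17 and 16, were all in libraries with 245557 or more reads in listed regions.

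In limma's test the intergenic region was below sgGal4 in all 17 tables by value. In the authors' deposited log2 ratios the pool sgHS1-5 lay above sgGal4 (0.14) and the other guides below it. Among the 15 guides aimed elsewhere, limma called the region lower for 3, of which only sgHS1-sg2 has replicate libraries, and higher for 0. The background shares, pooled over these 15 tables, were 10.6% of 129799 rows called lower and 1.53% called higher. The guides were sgHBB (−2.71, SE 0.65, limma adjusted p 0.0193), sgHS1-sg2 (−2.07, SE 0.57, limma adjusted p 0.0417) and sgHS3-sg2 (−2.71, SE 0.50, limma adjusted p 0.00664). Of all regions, 37% were called lower for sgHBB, 11.9% for sgHS1-sg2 and 31.1% for sgHS3-sg2. sgHBB and sgHS3-sg2 have 1 library each, with 1 read, which is taken to vary like sgGal4, so their own spread is not measured. The value that the deposited scale gives to 0 reads also bears on these differences. Replicate 3 of sgGal4, with 0 reads, stood at 3.10 beside sgHBB and at 3.27 beside sgHS3-sg2. Both values lie above the level of 1 that the guide library had with 1 read. Beside sgHS1-sg2 the same sgGal4 library stood at 3.22, above replicate 1 of that guide, at 2.32 with 4 reads. The call for sgHS1-sg2, the only one of the 3 with replicates, was lost when any 1 of its libraries or of the sgGal4 libraries was left out, with adjusted p-values from 0.0526 to 0.336. With reads and a pseudocount of 5 in place of the deposited levels, none of the 3 calls remained (limma adjusted p 0.131 for sgHS1-sg2). The differences there were −2.77 for sgHBB, −2.09 for sgHS1-sg2 and −2.13 for sgHS3-sg2. No region of these tables was called lower in that setting, so the loss is not particular to the intergenic region.

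The regions that all tables list lay in the same direction, but the only libraries that all 17 tables share are those of sgGal4. Being listed in every table may therefore favour regions with high sgGal4 reads, which was not tested, so these regions are no neutral yardstick. The median difference of these 1661 regions was below 0 in all 17 tables, from −3.03 for sgHS2-sg2 to −1.14 for the pool. In the 3 tables with a call, 64.8% of them were called lower for sgHBB, 57.9% for sgHS1-sg2 and 83.9% for sgHS3-sg2. The intergenic region lay above the median of the common regions in 14 of 17 tables, the gamma-globin guides among them. It was −0.82 against −1.67 for sgHBG and −0.69 against −2.35 for sgHBG-sg2. Set against the median of all regions of the table, it lay below for both guides. That median was −0.14 for sgHBG and −0.26 for sgHBG-sg2. The intergenic region lay above it only for sgHS1 (−0.52 against −0.94) and sgHS5-sg2 (−0.02 against −0.17). Ordered by difference, the guides ran from sgHBB at −2.71 to sgHS5-sg2 at −0.02. The largest step between neighbours was 0.55, beside standard errors of 0.49 to 0.97, so the order of neighbours cannot be read from these values, and the tables were normalised separately.

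**Figure D5:**
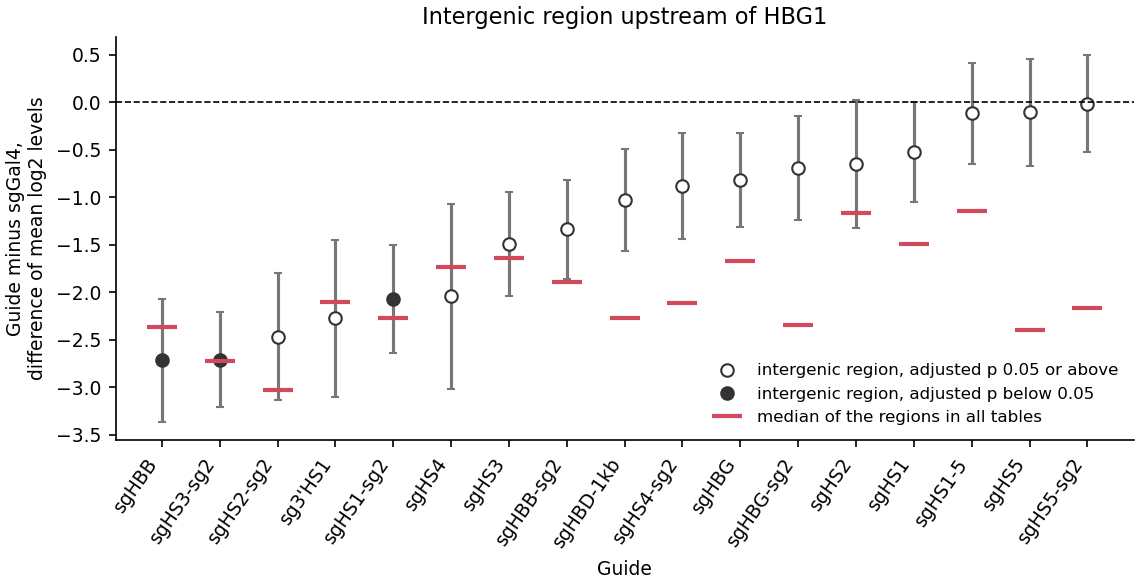
Difference of mean log2 levels, guide minus sgGal4, at the intergenic region (y axis; points with 1 standard error; filled where limma's adjusted p was below 0.05) for each of the 17 guides (x axis, ordered by value). Red bars give the median difference of the 1661 regions listed in all tables: the points lie above them in 14 tables, and the filled points, sgHBB, sgHS3-sg2 and sgHS1-sg2, lie between −2.71 and −2.07.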

How the data were processed

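The authors deposited 17 tables, each with 1 guide and the same 4 sgGal4 libraries, that give a log2 level per library for 300-base regions of hg19, and columns of the authors' own comparison (a log2 ratio and a target tag). Reads were aligned with Bowtie 1.0.0 and handled with Picard, per the submitters' processing notes, and only reads with a single alignment were kept, per the labels' protocols. The sources used here do not give the steps that made the levels or how regions were chosen. Libraries of sgHBG-sg2 were taken from the table whose columns bear their names, although their label text names that of sgHBG.

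Each deposited log2 level was found to be a constant plus a slope times log2 of a whole number, the lowest being 1, which gave back the reads per region (100% of values whole, within 0.01). Each table was fitted alone with limma 3.58.1 (R 4.3.3), guide against sgGal4, without a trend, with Benjamini-Hochberg adjustment over its regions and a threshold of 0.05, after a check on simulated data. Within-library ratios used reads with a pseudocount of 1 and exact 2-sided permutation tests. Named besides the members were the cluster list and, in each gamma-globin guide table, the 3 regions nearest to the mean of HBG1 and HBG2. Sequence was read from GRCh37 with the GENCODE annotation. The alternatives were reads with a pseudocount of 1 or 5, a limma trend, a minimum mean of 5 reads, sgGal4 replicates 1 and 2 alone, each library left out, a replicate block and, for the ratios and shares, other pseudocounts, scales and denominators. The depth was 7127 to 432553 reads in listed regions for guide libraries. The members and lists were chosen with earlier results of these data known.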

Additional observations from a re-analysis of the deposited data

Results flagged for a closer look

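In 3 of 21 checks, each of 1 measure in a group of 4 to 6 libraries, 1 library lay apart from the rest by Dixon's criterion. Chance meets this criterion in about 1 of 20 separate groups. The 21 checks reuse the same libraries over regions and measures, so their count cannot be set against that rate. The log2 ratio of HBG1 to HBG2 reads in sgHBG replicate 2 was 0.166, where the other 3 sgHBG libraries had more reads at HBG2. This library had 275 and 245 reads at the genes, the fewest of the 6 gamma-globin guide libraries. The intergenic region held 0.0112% of the reads in sgHBG replicate 2, which is 2 of 17857 reads, and 0.0245% in replicate 4 of the pool sgHS1-5, which is 5 of 20447. Both shares rest on 5 reads or fewer.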

How the results depend on the processing

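The 4 promoter differences stayed positive with a limma adjusted p below 0.05 in each of the 12 or 14 alternatives run for them, from 7.13 to 11.97 for HBG1 and 6.81 to 9.54 for HBG2 with sgHBG, and from 7.70 to 11.58 and 7.72 to 11.60 with sgHBG-sg2. The lowest value of each came from a pseudocount of 5 reads. The highest adjusted p was 0.0312, with 1 sgHBG-sg2 library left. The listing of the regions bears on this sign in each setting. Of the exact permutation tests of ratio and share, only the ratio over all 6 libraries could reach a p below 0.05 (exact smallest 0.0312), and its exact p was 0.25. The other tests say nothing on stability. Of the cluster list 0 regions were called in each alternative.

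The number of other guides for which the intergenic region was called lower was 3 of 15. It became 5 with reads and a pseudocount of 1 and 0 with a pseudocount of 5, for which the cause was not tested. With a library left out it ranged from 2 to 4. Calls over all regions of a table moved too. With a pseudocount of 1, regions called lower rose from 0 to 1690 of 10714 for sg3'HS1, which gained a call. For sgHS3, which also gained a call, they rose from 759 to 2222 of 7777. With a pseudocount of 5, only the sgHS5 table held regions called lower, 1949 of 16655. The number of guides with the intergenic region called lower was 0 with a mean of at least 5 reads and 1 with the replicate block. Fewer tables could be fitted there, 6 and 12. The filter left the region in none of the 3 tables with a call, and the block could not be fitted for sgHBB and sgHS3-sg2, while sgHS1-sg2 kept its call (adjusted p 0.00523). It was called higher for 0 guides throughout. Among guides not called, the sign turned for sgHS1-5 (0.094 with the replicate block), sgHS1 (0.18 with a pseudocount of 1), sgHS5-sg2 (0.053 with sgGal4 replicates 1 and 2 and with the replicate block) and sgHS5 (0.023 and 0.22 in the same settings). With a library left out the ranges were −0.47 to 0.13 for sgHS1-5, −1.16 to 0.12 for sgHS1, −4.09 to 0.0065 for sgHS4, −0.20 to 0.22 for sgHS5-sg2 and −0.35 to 0.22 for sgHS5. At −4.09, without sgHS4 replicate 2, the region was called lower, as it was for sg3'HS1 without its replicate 2 (−3.47, adjusted p 0.0345, against −1.07 without replicate 1). The difference at HS5 turned to −0.38 with a pseudocount of 5. Tables with 1 guide library could not be fitted without it.

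Same-numbered guide and sgGal4 libraries did not deviate together (r from −0.02 to 0.11 for sgHBG), so the numbers were not taken as pairs, and 0 of the 4 sgHBG libraries correlated best with the sgGal4 library of its own number. With the replicate block the differences were 10.20 and 8.96 for sgHBG and 11.58 and 11.60 for sgHBG-sg2 at HBG1 and HBG2. Depth limits the intergenic region, at 21 reads or fewer in each library, and a count of 0 does not exclude a low level.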
